A study of Canis lupus familiaris with 62 samples.

Results

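Chromosome 5 of the dog held 1178 of the 30951 genes of the counts file that had more than 1 exon row and spanned less than 500 kb. The rule used position and gene structure, but the chromosome was picked with earlier results of these data known. Of the 1411 genes of the chromosome, 227 others had 1 exon row and 6 spanned too far. The longest gene kept spanned 480528 bases and the shortest one left out spanned 539276 bases. RNA had been extracted from paraffin-embedded tumour sections of 62 dogs with spontaneous meningioma, 1 library per dog, and sequenced as paired 150 nt reads. The tissue came from surgical biopsies or from necropsies, and the labels do not say whether it was taken before or after the treatment they name.

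The treatment labels gave 6 groups. The steroid group had 7 dogs, of which 6 were labelled steroid/anti-epileptic and 1 steroid; the antiepileptic group had 3 dogs with an anti-epileptic alone. The RT group had 3 dogs, the Sx group 13 and the SxRT group 9 (labelled Sx + RT), with RT and Sx read as radiotherapy and surgery. For 7 Sx and 7 SxRT dogs the label added that the dog was lost to follow-up. The untreated group had 27 dogs, with the treatment given as none. There were 7 intact and 55 neutered dogs, and 31 females and 31 males. Ages were not used here, and p-values measured the spread between dogs.

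Dog chromosome 5 carries counterparts of parts of human 1p, 11q and 17p. Meningiomas grow from the coverings of the brain, and in people the loss of 1p is among the changes known from tumours of higher grade. As background, a segment of a chromosome that is lost or gained in a tumour tends to lower or raise the RNA of many of its genes at once. The counts measured RNA only. In bulk tissue, fewer cells of a type and less RNA per cell cannot be told apart, and cell types could not be checked because the files do not pair gene identifiers with names.

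The chromosome 5 genes lay between bases 103396 and 88508908 of CanFam3.1, with 589 on each strand. Their median span was 15176.5 bases, their median summed exon length 1782 bases and their median number of separate exon blocks 7. Exon bases were shared with another gene in 129 of them, and the counting did not use strand, so reads there cannot be assigned to 1 gene with certainty. Library totals ran from 1967061 to 12063982 counts, with a median of 4190135, and the chromosome 5 genes took between 1.66% and 4.63% of them. Each library had counts for 651 to 906 of the genes. Counts were found in every library for 470 genes and in none for 64. A filter on low counts left 873 genes for testing, and 593 reached the level asked of genes entering the scores, a mean log2 CPM (counts scaled to library size) of 2 or more.

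The chromosome 5 score of a library was the mean, over those 593 genes, of the gene's log2 CPM less its mean over all 62 libraries. From it was taken the library's median over the autosomes. Scores ran from -0.70 to 0.19 on the log2 scale, with a median of 0.04 and an SD of 0.18. A score under -0.3 was called low and one above 0.3 high. There were 4 low libraries and 0 high ones. With genes down to a mean log2 CPM of 1, or with the median over genes, 3 were low. At a mean level of 4 or more, or without subtracting the library median, 4 were low, of which 3 were among those named here. The 3 lowest were untreated replicate 9 at -0.70, Sx replicate 9 at -0.67 and untreated replicate 23 at -0.62. They were set off from the fourth, steroid replicate 5 at -0.32, by the widest gap between neighbouring scores. Just outside the limit was Sx replicate 13 at -0.28.

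**Figure D1:**
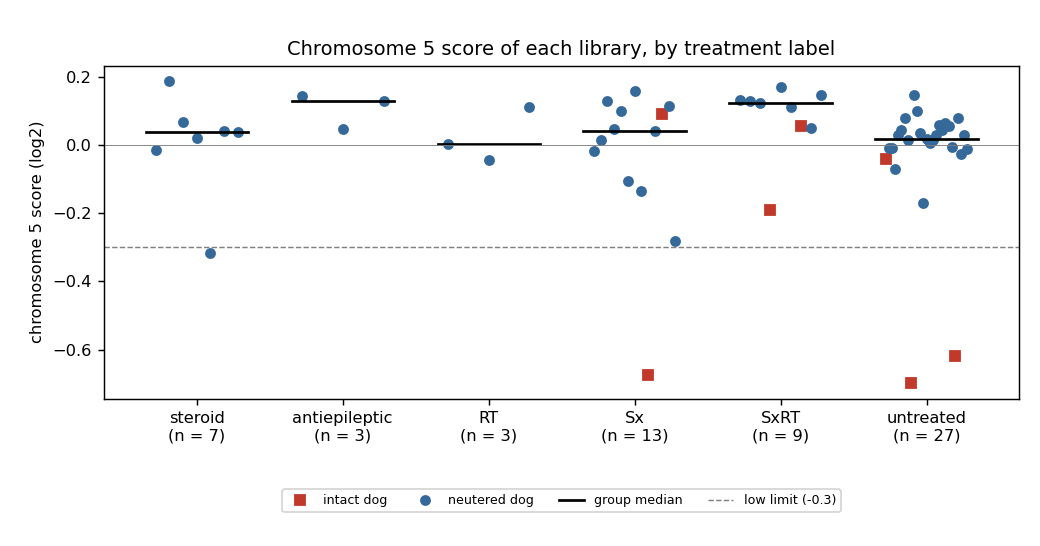
Chromosome 5 score (log2, vertical axis) of each of the 62 libraries by treatment label, with intact dogs as squares, neutered dogs as circles and group medians as bars. The 3 squares between -0.70 and -0.62 lie in the Sx and untreated groups, and group medians lie between 0.00 and 0.13.

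The treatment groups overlapped throughout. Scores ran from -0.32 to 0.19 in the steroid group, with a median of 0.04. The antiepileptic scores were 0.14, 0.05 and 0.13, and the RT scores 0.00, -0.04 and 0.11. The Sx group ran from -0.67 to 0.16 with a median of 0.04, the SxRT group from -0.19 to 0.17 with a median of 0.12, and the untreated group from -0.70 to 0.15 with a median of 0.02. Every group median lay within 1 SD of all scores, and the 3 lowest libraries came from both surgical and untreated dogs. Parts of the chromosome, picked after the values were seen, differed in both directions. At 0 to 10 and 20 to 30 Mb the medians were -0.20 and -0.19 in Sx and SxRT dogs together, against 0.11 and 0.08 in untreated dogs. At 30 to 40 and 60 to 70 Mb they were 0.11 and 0.14, against -0.07 and -0.04. These differences were not tested.

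All 3 of the lowest libraries came from intact dogs. The 7 intact scores were -0.70, -0.67, -0.62, -0.19, -0.04, 0.06 and 0.09, the last 4 from SxRT replicate 4, untreated replicate 1, SxRT replicate 7 and Sx replicate 11. Neutered scores ran from -0.32 to 0.19 with a median of 0.04. Intact dogs therefore held both the lowest scores and scores inside the neutered range. The comparison by neuter status was made after the scores had been seen, and the scores were not tested. Total counts of the 3 lowest libraries were 3307667, 3053049 and 5392471, and the mitochondrial share of their counts was 10.4%, 6.75% and 11.8%. Both measures lay inside the range of the other libraries.

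The intact libraries were also compared with the neutered ones gene by gene, in the fit of all 18370 tested genes (edgeR quasi-likelihood test, Benjamini-Hochberg adjustment). By that test 0 chromosome 5 genes passed, with a background of 0.0435% over all genes tested. At an unadjusted p under 0.05, 92 of 873 chromosome 5 genes were lower in intact dogs (10.5%), against 4.07% of all genes, and 7 were higher (0.802%), against 4.06%. The comparison was added because the 3 lowest scores, made from these same genes, came from intact dogs. An excess of lower genes was therefore bound to appear, and the shares are a description. No other tool was run for this comparison. The median log2 fold change was -0.28 for chromosome 5 genes and -0.04 for all genes, and 695 chromosome 5 genes lay below 0. Without the 3 lowest libraries the lower genes numbered 11 (1.26%, against 1.61% of all genes), and the median fold change was -0.07. Those 3 libraries were picked for their low scores, so leaving them out was bound to shrink the difference. It also left 4 intact dogs, and the share over all genes fell as well. The refit therefore cannot show how far the difference rests on them.

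The 3 libraries were low from 1 end of the chromosome to the other. The chromosome was cut into 9 bins of 10 Mb, each with at least 10 scored genes. Untreated replicate 9 ran from -0.86 to -0.57 over the bins, Sx replicate 9 from -0.96 to -0.56 and untreated replicate 23 from -0.74 to -0.38. Each bin of each of these libraries was under -0.3. The deepest value, in Sx replicate 9, was in the bin from 50 to 60 Mb. Steroid replicate 5 differed from them: its bins ran from -0.73 (40 to 50 Mb) to 0.20 (the first 10 Mb), with 5 of 9 under -0.3. Mitochondrial genes took 46.7% of the counts of that library, the highest share of all, and its total of 12063982 was the largest. The part of these measures in its score was not tested.

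**Figure D2:**
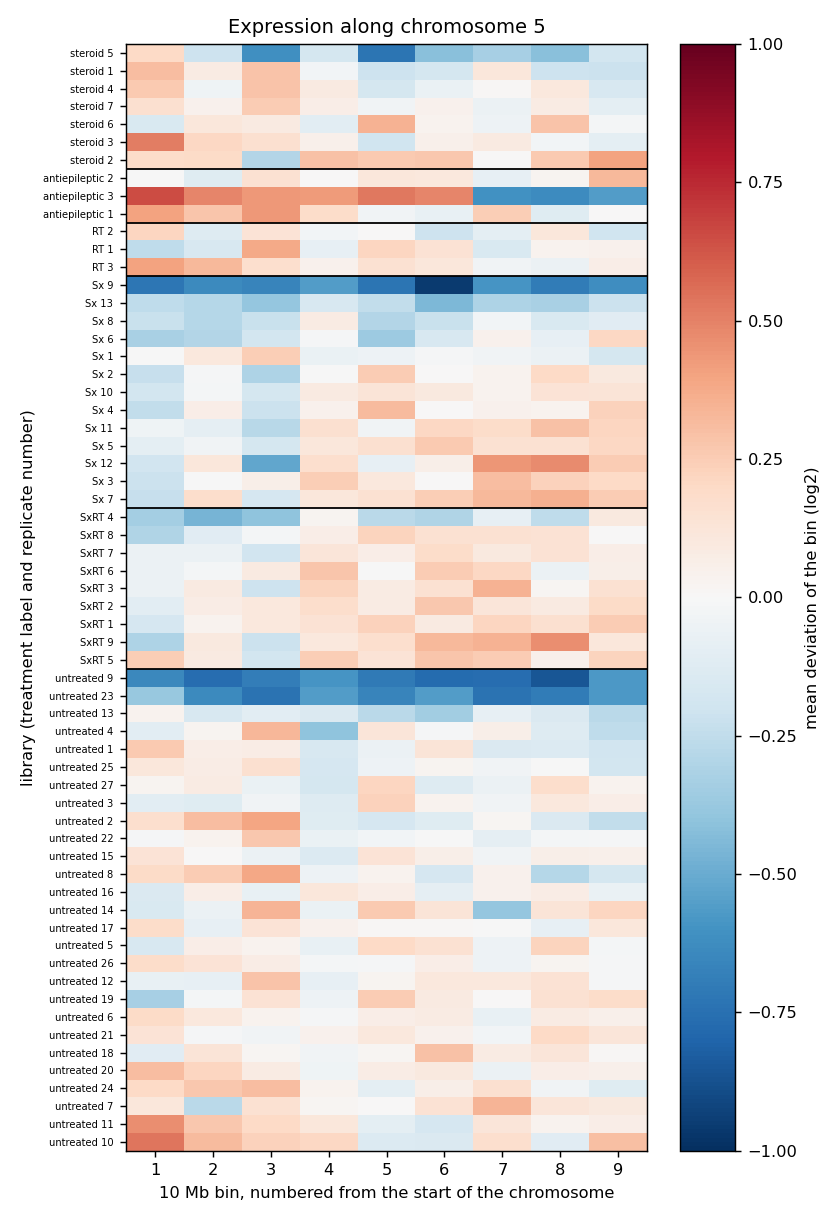
Mean deviation (log2, colour) of each 10 Mb bin of chromosome 5 (columns, in chromosome order) in each library (rows, by treatment label and then score, with lines between labels). Sx 9, untreated 9 and untreated 23 are blue across all 9 bins, and antiepileptic 3 is red in bins 1 to 6 and blue in bins 7 to 9.

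Gene by gene, most of the chromosome moved down together in those libraries. Of the 593 scored genes, 81.8% were below their own mean in untreated replicate 9, 79.8% in Sx replicate 9 and 87.7% in untreated replicate 23. In the other 59 libraries the share ran from 34.6% to 65.9%. The median gene stood at 0.653, 0.651 and 0.663 of its geometric mean level after that subtraction. Without subtracting the library median the 3 scores were -0.60, -0.59 and -0.52, and the shares of genes were not counted. All 3 libraries were chosen by the mean of these genes, so the shares describe how evenly the low score was spread and test nothing. Among the 137 genes at a mean level of 6 log2 CPM or more, where counting error is smallest, 86.1%, 89.8% and 89.8% were below their mean.

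Below their mean in all 3 libraries were 363 genes (61.2%), and 102 of the 137 highly expressed ones (74.5%). A further 164 genes were above their mean in 1 of the 3 libraries and 61 in 2. Above it in all 3 were 5 genes, named here after their values were seen. ENSCAFG00000018884 (50109660 to 50522630) deviated by 1.43 in untreated replicate 9, by 0.26 in Sx replicate 9 and by 1.40 in untreated replicate 23. ENSCAFG00000019422 (57411529 to 57416512) deviated by 0.17, 1.06 and 0.23 in the same order, and ENSCAFG00000012813 (15476582 to 15513075) by 0.78, 0.43 and 0.98. These 3 had mean log2 CPM values of 3.18, 3.66 and 2.45, near the lower end of the scored genes. The other two, ENSCAFG00000018897 (50945210 to 51012677) and ENSCAFG00000018436 (41663773 to 41686776), had means of 6.47 and 6.26. Their deviations were 0.36, 0.33 and 0.09 for the first gene and 0.00, 0.07 and 0.05 for the other. The 5 genes were scattered between 15476582 and 57416512, and at the higher expression level the deviations above the mean were small.

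Chromosome 5 was not the only low chromosome in these libraries. By the same score, untreated replicate 9 was low on 8 autosomes, Sx replicate 9 on 7 and untreated replicate 23 on 4. Chromosomes 5 and 17 were low in all 3. Chromosome 17 was the autosome most often low, in 16 of the 62 libraries. Over all libraries its score had a Pearson's r of 0.18 and a Spearman's rho of -0.07 with that of chromosome 5. Low in 2 of the 3 libraries were chromosomes 3, 15, 18, 20 and 27. Their r with chromosome 5, in this order, was 0.43, 0.56, 0.57, 0.59 and 0.20. Their rho was 0.23, 0.09, 0.51, 0.63 and -0.03. These values include the 3 lowest libraries. Across the other autosomes the number of low libraries ran from 0 to 16 with a median of 2, so the 4 low libraries of chromosome 5 were inside that range.

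Low along part of the chromosome, with a score of at least -0.3 but at least 2 neighbouring bins under -0.3, were 3 libraries. Sx replicate 13 was below 0 in all 9 bins, from -0.45 to -0.16, with 4 bins under -0.3. SxRT replicate 4, from an intact dog, ran from -0.47 to 0.10. Its first 3 bins were -0.34, -0.47 and -0.40, and its last bin was its highest. The other library, antiepileptic replicate 3, had a score of 0.13, with its 2 ends on opposite sides of 0.

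Antiepileptic replicate 3 was high along the first 60 Mb and low along the rest. Its bins read 0.65, 0.49, 0.43, 0.42, 0.53 and 0.49 up to 60 Mb and then -0.61, -0.63 and -0.56. The split into 2 segments with the best difference of means, at least 30 genes on each side, fell between a gene ending at 60081148 and the next starting at 60091345. Before it, 327 of 398 genes (82.2%) were above their mean, with a median deviation of 0.45, or 1.37 times the mean level. After it, 175 of 195 genes (89.7%) were below, with a median deviation of -0.58, or 0.667 of the mean level. Both were taken after subtracting the library's median over the autosomes. Of the highly expressed genes, 91 of 98 were above before the split and 38 of 39 below after it. Close to the split, 17 of the last 20 genes before it were above their mean and 19 of the first 20 after it were below. The place of the split was chosen from these values, so they are a description.

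**Figure D3:**
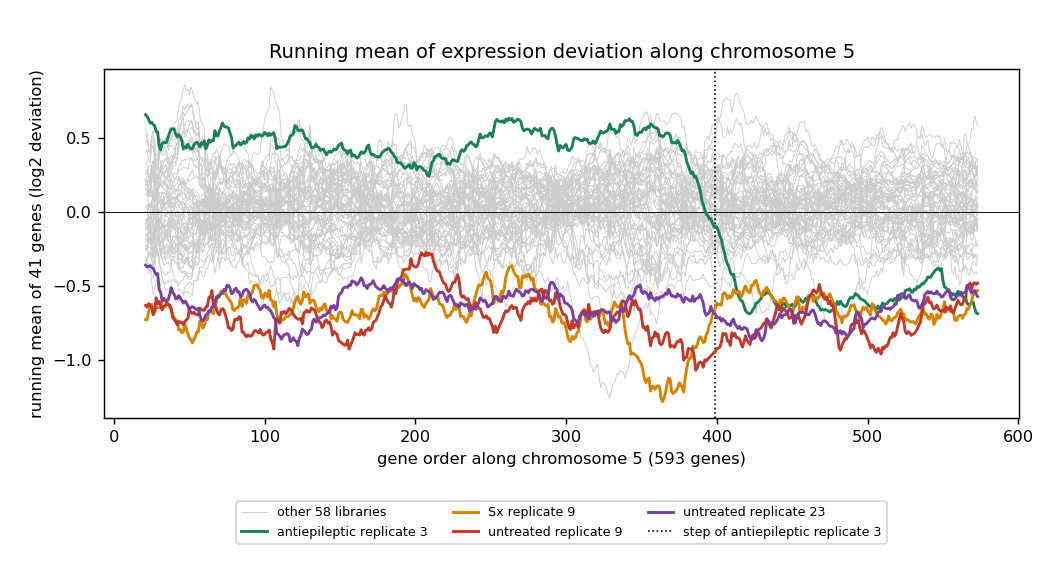
Running mean over 41 genes of the deviation from each gene's mean (log2, vertical axis) against gene order along chromosome 5 (horizontal axis), for 4 named libraries in colour and the other 58 in grey. Sx replicate 9, untreated replicate 9 and untreated replicate 23 stay below 0 throughout, and antiepileptic replicate 3 crosses from about 0.49 to about -0.61 at the dotted line.

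The other libraries had smaller steps on this chromosome. The difference between the segments, later less earlier, was -1.09 in antiepileptic replicate 3 and between -0.20 and 0.42 in the others. That split was chosen on antiepileptic replicate 3. At their own best split, the differences of the other libraries ran from -0.60 (steroid replicate 5) to 0.49 (Sx replicate 12). The standardized step grows with the number of scored genes, which was 593 here and 99 to 699 over the autosomes. Ranks by it therefore favour chromosomes with many genes. Over the 38 autosomes and 62 libraries, 2356 pairs in all, the standardized step of antiepileptic replicate 3, 15.7, had rank 1. The next on chromosome 5 was Sx replicate 12, with a standardized step of 5.17 (rank 35) and a mean of -0.08 before 56066303 and 0.41 after 56151171.

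Neighbouring bins moved together over the libraries. Pearson's r over 62 libraries had a median of 0.677 for the 8 pairs of neighbouring bins and of 0.490 for the 28 pairs farther apart, and 0 of 36 pairs were below 0. These correlations share library scaling and are given as a description. Without the 3 lowest libraries the medians were 0.505 and 0.161, and 12 pairs were below 0. The first and the third bin followed the other bins least, with Spearman's rho of 0.10 and 0.01 over all libraries, against 0.31 to 0.69 for the other 7 bins.

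Each gene's r with the mean of the scored genes over 1 Mb away ran from -0.25 to 0.73, with a median of 0.222. An r of 0 or less, called not following, was found for 58 of 593 genes (9.78%), and 31 genes were above 0.5. On the other autosomes the share not following ran from 5.87% to 39.6% with a median of 21.2%. Without the 3 lowest libraries 156 genes (26.3%) did not follow, 49 of them among the 58, and 7 were above 0.5. With Spearman's rho 103 genes (17.4%) did not follow. The share thus depended on the 3 libraries and on the measure.

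**Figure D4:**
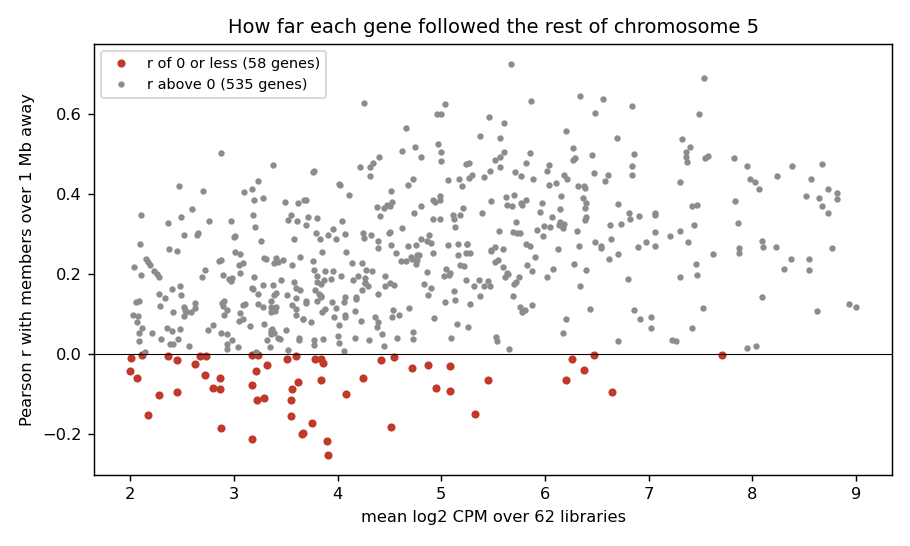
Pearson r of each of the 593 scored genes with the mean of members over 1 Mb away (vertical axis) against its mean log2 CPM (horizontal axis), with the 58 genes at or below 0 in red. Most red points, 40 of 58, lie below a mean log2 CPM of 4.

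Genes that did not follow were mostly lowly expressed. They made up 40 of 231 genes (17.3%) with a mean log2 CPM from 2 to 4, 12 of 225 (5.33%) from 4 to 6 and 6 of 137 (4.38%) from 6 up. Their median mean log2 CPM was 3.58, against 4.71 for the 535 genes that followed, and their median SD over libraries was 0.95, against 0.70. Median spans were 23912 bases for genes that did not follow and 22320 for those that did, and median exon blocks 9.5 and 11. Exon bases were shared with another gene in 6.90% of the genes that did not follow and in 14.0% of those that did. By position, such genes were 8 of 42 scored genes in the first bin (19.1%), the highest share, and 2 of 48 in the bin from 70 to 80 Mb (4.17%), the lowest. Runs of at least 3 neighbours were found at 3 places: 5843023 to 8212832, 26272970 to 27177683 and 41663773 to 41982349.

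Among the 243 genes at a mean level of 5 log2 CPM or more, ENSCAFG00000016117 (32217464 to 32223732) had the lowest r, at -0.15. Its log2 CPM ran from 3.99 to 6.36 with a median of 5.40, and it deviated by 0.05, 0.34 and -0.04 in untreated replicate 9, Sx replicate 9 and untreated replicate 23. ENSCAFG00000012806 (15447104 to 15458515) came next with an r of -0.10 and a wide range, from 0.61 to 8.82 with a median of 7.05. Its deviations were 1.32, 2.09 and -0.21. Neither gene was low in all 3 libraries. In antiepileptic replicate 3, where both lie before the split, they deviated by 0.71 and 2.01, upward like that segment. Their Spearman's rho was 0.04 for each.

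The closest followers stood opposite. ENSCAFG00000020360 (81926612 to 81965526) had an r of 0.726, and its log2 CPM ran from 4.03 to 6.83 with a median of 5.70. It deviated by -1.72, -1.73 and -1.22 in the 3 lowest libraries, and by -0.48 in antiepileptic replicate 3, where it lies after the split. ENSCAFG00000012766 (15341141 to 15370294) had an r of 0.690 and ran from 6.80 to 8.14 with a median of 7.56. Its deviations were -0.85, -0.79 and -0.69, and 0.50 in antiepileptic replicate 3, before the split. Without the 3 libraries the r of the followers was 0.536 and 0.517, and that of the other pair -0.19 and 0.05.

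Treatment labels were compared in the same fit of all genes. In surgical dogs (Sx and SxRT, n = 22) against untreated dogs (n = 27), 61 of 873 chromosome 5 genes were higher (6.99%), against 6.37% of all genes, and 74 were lower (8.48%), against 10.4% of all genes. The chromosome's share was near the background in both directions. The balance of directions depended on the setting. Limma voom called 89 higher and 48 lower (8.42% and 7.78% of all genes), and without the 6 libraries past the widest gap on the first principal component 53 were higher and 34 lower (4.80% and 6.27% of all genes). The genes that were higher had a median level of 5.13 log2 CPM and a median log2 fold change of 0.66. Of these 61, 12 changed more than 2-fold, and the largest log2 fold change was 4.75. The lower ones had a median level of 2.78 and a median log2 fold change of -2.17, and 57 of the 74 changed more than 2-fold. These levels and sizes were not taken over all genes called, so they cannot be read as particular to chromosome 5. In 0 of these genes did the 2 groups' ranges stay apart, as in 0 of all 18370 genes tested. The median log2 fold change over chromosome 5 was 0.06, against -0.02 over all genes.

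**Figure D5:**
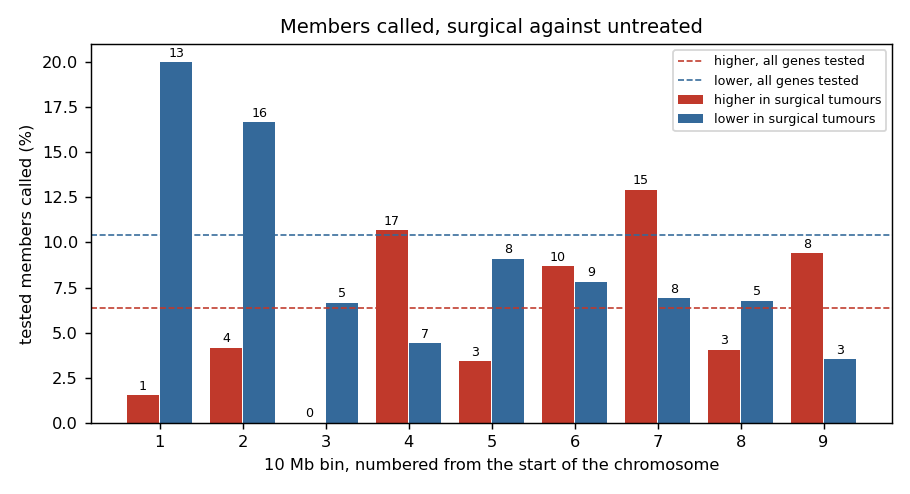
Share of tested chromosome 5 genes (%, vertical axis) that were higher (red) or lower (blue) in surgical against untreated tumours, by 10 Mb bin (horizontal axis), with gene counts above the bars and dashed lines for all genes tested. The first 2 bins hold 13 and 16 of the 74 lower genes, and the bins at 30 to 40 Mb and 60 to 70 Mb hold the most higher ones, 17 and 15.

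By position, 5 of 236 tested genes in the first 30 Mb were higher (2.12%) and 34 lower (14.4%), and in the rest 56 of 637 were higher (8.79%) and 40 lower (6.28%). Over all genes tested the shares were 6.37% and 10.4%. In the first 2 Mb, 8 of 14 tested genes were lower, with a median log2 fold change of -1.66. Between 32 and 34 Mb, 9 of 75 were higher. These windows were picked after the calls had been seen.

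ENSCAFG00000019142 (55604878 to 55699736) had a lowest, median and highest log2 CPM of 3.79, 6.35 and 10.4 in surgical dogs, against 3.70, 5.46 and 6.97 in untreated dogs. The surgical range reached higher, and 17 of 22 surgical dogs were above the untreated median. The log2 fold change was 2.02 (SE 0.35, edgeR adjusted p = 0.000129). By label, its medians were 5.73 in Sx, 7.15 in SxRT and 5.46 in untreated dogs. SxRT against Sx gave a log2 fold change of 2.07 for this gene, which did not pass (SE 0.55, edgeR adjusted p = 0.208). ENSCAFG00000016824 (32714187 to 32715680) had 2.47, 3.84 and 4.82 in surgical dogs, against -1.16, 2.68 and 3.81 in untreated dogs. The value -1.16 stands for no counts. Of the surgical dogs, 20 were above the untreated median, and the log2 fold change was 1.22 (SE 0.24, edgeR adjusted p = 0.000437).

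Of the genes that were lower, ENSCAFG00000011168 (9673809 to 9679799) had -1.16, 1.19 and 5.37 in surgical dogs, against -0.17, 2.73 and 8.63 in untreated dogs. High values were rare in surgical dogs, with 2 of 22 above the untreated median, and the log2 fold change was -4.21 (SE 0.86, edgeR adjusted p = 0.00062). ENSCAFG00000011538 (10783325 to 10804242) had -1.16, 0.58 and 3.43 in surgical dogs, against -1.16, 3.31 and 7.09 in untreated dogs. Here 1 of 22 was above the untreated median, and the log2 fold change was -3.59 (SE 0.72, edgeR adjusted p = 0.000514). No gene of these 4 shared exon bases with another gene.

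The surgical libraries differed from the untreated ones in other measures as well. The mitochondrial share of counts was 10.0% ± 4.01 with surgery and 14.4% ± 7.91 without treatment, and mean totals were 5356585 ± 2070796 and 3951210 ± 1216060 counts (SD, n = 22 and 27). The part of these measures in the calls was not tested. All 21 libraries with names starting with S were surgical, and 1 surgical library had an N name, as had all untreated ones, so the name letter and the treatment cannot be told apart. Even counts among counts of 1 to 20, which arise where both reads of a pair fall in the gene, made up 86.5% ± 3.46 in surgical and 91.2% ± 2.71 in untreated libraries (SD, n = 22 and 27). With that share as a covariate, 16 genes were higher and 18 lower (1.42% and 2.58% of all genes), and the 2 lower genes named lost their calls (edgeR adjusted p = 0.135 and 0.138). In limma voom, ENSCAFG00000011168 also lost its call, with a log2 fold change of -1.74 (adjusted p = 0.194, over all alternatives 9.44e-09 to 0.321). Among dogs whose name carried a number from 11 to 16 (9 surgical, 18 untreated) 0 genes passed in edgeR, with 39 higher and 71 lower at an unadjusted p under 0.05 (12.8% in all, against 13.1% of all genes). Among numbers 17 to 22 (13 surgical, 9 untreated) 2 were higher and 1 lower (0.190% and 0.174% of all genes). All 4 named genes lost their calls in both of these smaller sets and kept their directions. In numbers 11 to 16 and in 17 to 22, the log2 fold changes were 1.53 and 1.75 for ENSCAFG00000019142 and 1.49 and 0.96 for ENSCAFG00000016824. They were -4.95 and -2.64 for ENSCAFG00000011168 and -3.83 and -2.73 for ENSCAFG00000011538.

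The other labels gave few calls. In steroid dogs against untreated dogs, 1 gene passed as higher, against 0.256% of all genes, and 0 as lower, with 36 and 33 at an unadjusted p under 0.05 (7.90% of the chromosome 5 genes in all, against 11.0% of all genes). With limma voom, 45 passed as higher (5.15%, against 5.56% of all genes) and 5 as lower (0.573%, against 0.909%), and with DESeq2 0 and 1 (0.588% and 0.158% of all genes). The gene was ENSCAFG00000047904 (14556065 to 14561623), named after its values were seen because it was too lowly expressed for the rule. Counts in the 7 steroid libraries were 6, 0, 16, 10, 6, 2 and 330, against 0 to 20 in untreated libraries, of which 15 had none. Replicate 7 stood far above the others. The log2 fold change was 4.07 (SE 0.98, edgeR adjusted p = 0.0469), and without replicate 5 or without replicate 7 the call was lost.

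In RT dogs against untreated dogs, 1 gene passed as higher (0.425% of all genes) and 1 as lower (0.0109% of all genes). ENSCAFG00000017863 (36674300 to 36769327) had 571, 0 and 22 counts in the RT libraries, and log2 CPM values of -1.16, 1.49 and 5.72 (lowest, median, highest) in untreated ones. Its log2 fold change of 3.99 (SE 1.01, edgeR adjusted p = 0.0482) was -0.32 without the RT library that had 571 counts. It lost its call in 11 of 15 alternatives. ENSCAFG00000045483 (76279221 to 76285312) had 0 counts in all 3 RT libraries, against a lowest, median and highest count of 0, 10 and 22 in untreated libraries. The 3 antiepileptic libraries had at most 4 counts, and 1 of them had none. Median log2 CPM was 2.47 in steroid, 1.58 in Sx and 1.27 in SxRT libraries, against 1.47 in untreated ones. The untreated mean of this gene was 2.61 ± 1.80 CPM (SD, n = 27), or 10.5 times a floor of 3 counts over the RT group. RT against untreated gave an edgeR adjusted p of 0.00538. Both reads of a pair were counted, so 3 counts can be fewer than 3 fragments. The ratio also leaves out the spread between dogs and is not a lower limit. ENSCAFG00000045483 lost its call without RT replicate 1 (edgeR adjusted p = 0.225) and in both ranges of name numbers, of which 17 to 22 holds 1 RT library. Counts this low, in 3 libraries, limit what can be said of either gene.

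In antiepileptic dogs against untreated dogs, 0 genes passed in edgeR (0.00544% of all genes), with 23 higher and 27 lower at an unadjusted p under 0.05 (5.73% in all, against 4.61% of all genes). With DESeq2, 0 passed as higher and 1 as lower (0.00544% and 0.152% of all genes), and with limma voom 1 and 0 (0.0762% and 0% of all genes). The split along the chromosome had been placed on antiepileptic replicate 3, 1 of the 3 libraries of this group. Before the split the median log2 fold change of the tested genes was 0.14, and after it -0.20, against -0.05 over all genes. Without that library the medians were -0.06 and -0.07, against -0.09 over all genes. In SxRT dogs against Sx dogs, 0 genes passed in edgeR (0.0109% of all genes), with 28 higher and 11 lower at an unadjusted p under 0.05 (4.47% in all, against 5.11% of all genes). With DESeq2, 1 passed as higher and 1 as lower (0.103% and 0.109% of all genes), and with limma voom 0 and 0. The median log2 fold change was 0.10 over chromosome 5 and -0.04 over all genes. The Sx group holds Sx replicate 9, 1 of the 3 lowest libraries. Without those 3, 17 genes were higher and 13 lower at an unadjusted p under 0.05 (edgeR, 3.44% in all, against 4.49% of all genes). The medians were then 0.045 and -0.045. Those libraries were picked for their low scores, so leaving them out was bound to shrink the difference.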

How the data were processed

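Raw counts per gene were deposited for 62 libraries in 1 table, with 0 columns of another series. They were made by the authors with featureCounts 2.0.4, per the file headers, from primary alignments, ignoring strand, over the exons of the CanFam3.1 annotation of Ensembl (release 100). The paired option was set without the option that counts fragments, so both reads of a pair counted, and precision is lower than totals imply. STAR and DESeq2 were used with canFam3, per the submitters' processing notes; the versions, and how reads shared between near-identical genes were handled, were not given in the sources used here. The name table at hand matched 0 identifiers.

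Counts were filtered with filterByExpr, scaled by TMM and fitted in edgeR 4.0.16 (R 4.3.3) with quasi-likelihood tests and Benjamini-Hochberg adjustment, all 62 libraries in 1 model with treatment, sex and neuter status. The surgical contrast sets the average of the Sx and SxRT groups against the untreated group. Alternatives used DESeq2 1.42.0 and limma 3.58.1. Scores used log2 CPM with a prior count of 2. The scripts were tested on simulated data. Named genes were the 2 largest changes per direction with an adjusted p under 0.05, a mean level of 1 log2 CPM or more and group medians 0.5 or more apart in the direction of the fold change. For following, they were the 2 lowest and 2 highest r at a mean level of 5 or more. The genes, rules and lists were chosen with earlier results of these data known. Replicates were numbered in accession order, and no pair of libraries agreed within sampling noise: the chi-square per gene was 11.8 in the closest of 1891 pairs.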

Additional observations from a re-analysis of the deposited data

Results flagged for a closer look

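Of 42 sets of values tested for a single library standing apart from its group (the steroid, SxRT and intact libraries), 9 were flagged, where chance flags about 1 in 20. The chromosome 5 score and the bins hold the same genes, so the sets are not independent and 1 library can be flagged several times. Setting 9 of 42 against 1 in 20 therefore shows no excess by itself. In steroid dogs, replicate 5 had the lowest chromosome 5 score, -0.317, against -0.015 for the next, and the lowest value of bin 7 (60 to 70 Mb), -0.334. Replicate 2 of that group had the highest value of bin 9, 0.403.

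In SxRT dogs, replicate 4 was lowest in the chromosome 5 score, -0.19, against 0.05 for the next, and in bins 2, 5 and 6, at -0.465, -0.273 and -0.301. SxRT replicate 5 was highest in bin 1, at 0.248, and had the highest log2 CPM of ENSCAFG00000011168, 5.37, against 1.72 for the next. No value was flagged among the intact libraries, where the 3 lowest scores lie close to each other.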

How the results depend on the processing

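No paired analysis was possible because replicate numbers follow accession order and pair nothing. The 135 surgical calls became 34 with the even share as covariate, 0 within name numbers 11 to 16, 3 within 17 to 22 and 87 (53 higher, 34 lower) without the 6 libraries past the widest gap on the first component, an alternative added after seeing the data. Limma voom gave 89 higher and 48 lower. Leaving out 1 surgical library gave 105 to 152. The 1 steroid call became 0 under TMM without chromosome 5, only the groups compared, the even share and either number range. It also became 0 without the 3 lowest libraries. With no filter 6 passed, all higher (0.539%, against 0.578% of all genes), and in limma voom 50, with 0 to 1 on leaving 1 out. The 2 RT calls became 12 with no filter, of which 11 were higher (0.987%, against 0.811% of all genes). In limma voom they became 7, of which 6 were higher (0.687%, against 1.12%). Without the 6 libraries they became 5, of which 4 were higher (0.445%, against 0.666%). The 1 lower gene in each was 0.0898%, 0.115% and 0.111%, against 0.0153%, 0.049% and 0.0367% of all genes. They became 1 with only the groups compared or without the 3 lowest libraries, and 1 to 12 on leaving 1 out. The antiepileptic 0 became 2 with no filter, both higher (0.18%, against 0.119% of all genes). It became 1 in DESeq2 and 1 in limma voom, with 0 to 1 on leaving 1 out. Shares over all genes are not given here for the fits leaving 1 library out. The SxRT 0 became 2 in DESeq2. The cause of these changes was not tested. The log2 fold change of ENSCAFG00000017863 reversed to -0.32 without RT replicate 1 and was 4.56 without RT replicate 2. Libraries low along the whole chromosome numbered 4 at a level of at least 4 and 3 under every other score alternative. Those low along part numbered 7 at a level of at least 4, 6 without subtracting the library median and 6 with 5 Mb bins. Genes not following numbered 21 at a level of at least 4, 103 with Spearman's rho, 156 without the 3 lowest libraries and 155 also without antiepileptic replicate 3. Lower genes at unadjusted p in intact dogs numbered 11 without the 3 libraries. Antiepileptic medians without replicate 3 were -0.0645 before and -0.069 after the split. Over 6 score alternatives the 3 lowest libraries stayed between -0.75 and -0.52, and antiepileptic replicate 3 at 0.42 to 0.59 before and -0.62 to -0.50 after the split.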
